A study of Homo sapiens with 6 samples.

Results

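Solute carriers (SLC) are membrane proteins that move sugars, amino acids, organic ions, metals, vitamins and inorganic ions across the plasma membrane or the membranes of organelles. They are grouped into numbered families by sequence, so that members of a family can differ in substrate and in membrane. Hepatocytes use them to exchange glucose with the blood, to take up amino acids, citrate, drugs and metals, and to supply mitochondria and the Golgi. The genes described here are the 48 of 1998 genes in the authors' deposited table whose symbol starts with SLC and a number, without SLC51A and SLC51B. They were chosen by that table, which holds only genes the authors called as changed (adjusted p, written q, under 0.05). The fold changes below therefore describe genes selected on this contrast and are no test of it. The rule also takes in SLC9A3R1, an adaptor protein that binds carriers and is not itself a carrier.

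RNA came from HepG2, an established human liver cancer line, 48 h after transfection with a control siRNA (siCon, 3 libraries) or an siRNA against the long noncoding RNA H19 (siH19, 3 libraries). No other treatment is given in the labels, and both groups are the same line. The comparison asks which transcripts change when the cells receive the H19 siRNA. The level of H19 itself was not analysed here, and the group names are those of the labels. All 6 hepatocyte genes fixed as markers, ALB, TTR, APOB, SERPINA1, AFP and HNF4A, were among the genes in the authors' deposited table. All 6 were lower in siH19, from -0.88 for TTR to -0.35 for AFP there, so hepatocyte markers fell beside the carriers, and their part in the carriers' changes was not tested. The table gives 1 combined value per group, with a standard error (SE) of the log2 fold change over the libraries, so no value per library can be shown. Depth per library is unknown. In RNA from bulk cells, fewer cells that express a gene and less RNA per cell cannot be told apart.

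Most listed carriers were lower in siH19. Of the 48, 40 (83.3%) were lower and 8 were higher, beside 55.3% lower and 44.7% higher among all 1998 genes of the authors' deposited table. The median log2 fold change of the 48 was -0.47, against -0.27 for all listed genes. The 40 lower members had a median of -0.57 and the 8 higher members a median of 0.43. The 8 that rose were SLC44A2, SLC41A1, SLC1A4, SLC12A2, SLC7A2, SLC39A10, SLC39A1 and SLC2A3. A fall of at least 2-fold was listed for 3 of the 48 members, SLC2A2, SLC22A3 and SLC25A30, beside 2.40% of all listed genes. No member rose by that much, but only 35 of all 1998 listed genes did, so the absence among 48 members says little. Falls of at least 1.5-fold were listed for 18 of the 48 members and rises for 2 of the 48, beside 15.6% and 12.6% of all listed genes. The least certain call was SLC25A13 (q = 0.0434 in the authors' deposited table), and 12 members had q written as 0, below the table's precision. These were SLC1A2, SLC2A2, SLC5A9, SLC9B2, SLC13A3, SLC13A5, SLC22A3, SLC25A30, SLC31A1, SLC35D2, SLC39A7 and SLC39A14. Carriers that missed the threshold were not analysed here.

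**Figure D1:**
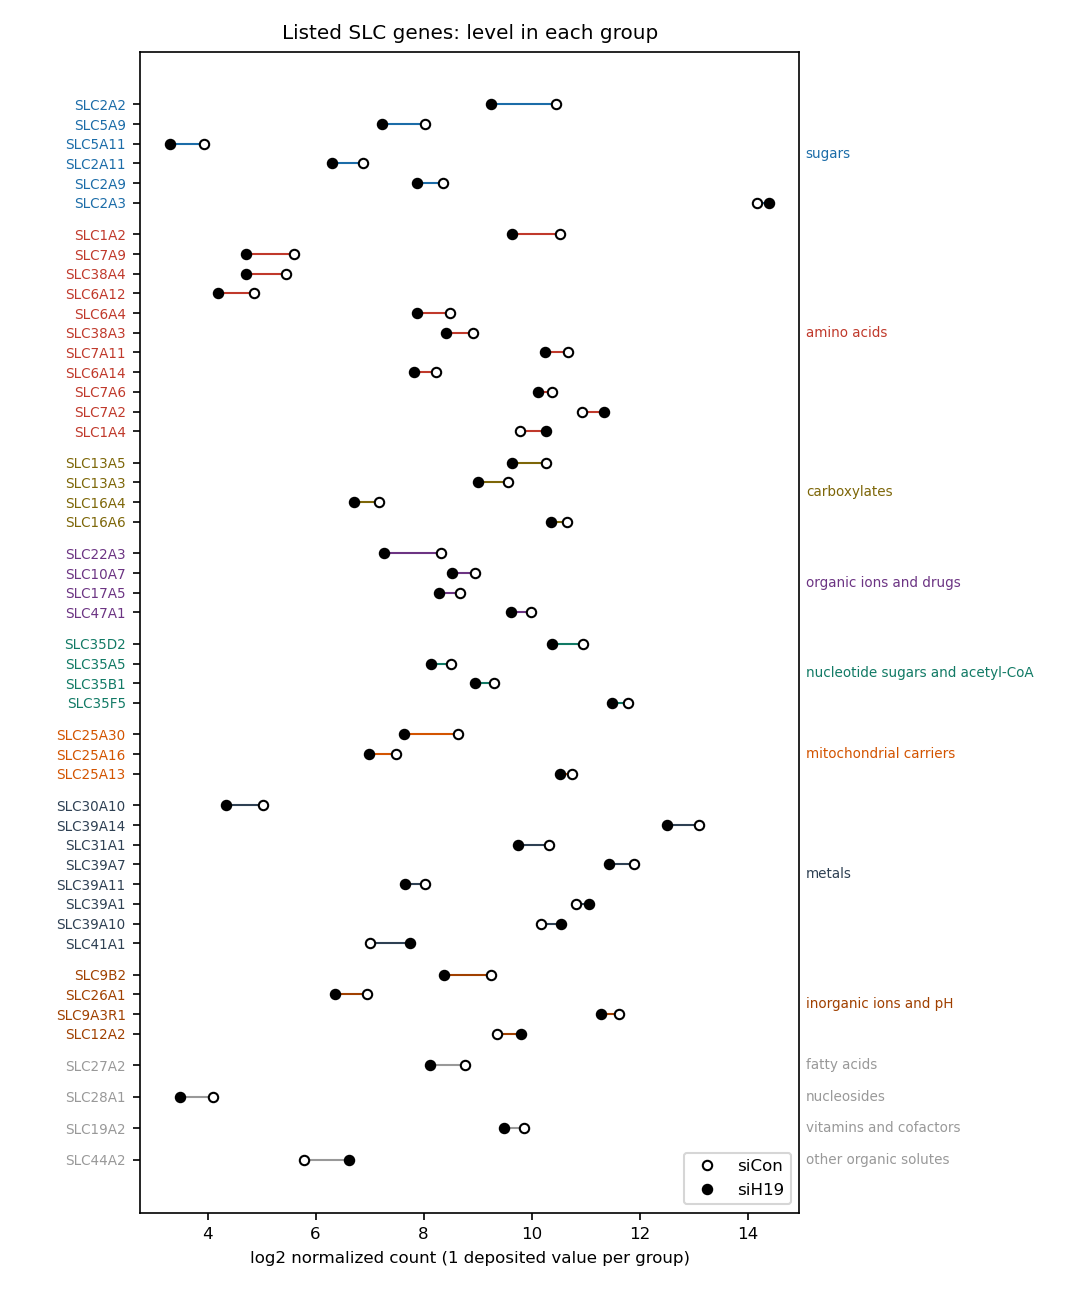
Level of the 48 listed SLC genes as log2 normalized count (horizontal axis) in siCon (open points) and siH19 (filled points), 1 deposited value per group, by substrate class. The filled point lies left of the open one in 40 genes and right of it in 8, and levels run from SLC5A11 (3.93 in siCon) to SLC2A3 (14.17).

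Sugar carriers showed the largest single fall and the highest level of all members. Of 6 listed, 5 were lower, with a class median of -0.60. SLC2A2 encodes GLUT2, the low-affinity glucose transporter through which hepatocytes take up and release glucose. Its log2 normalized count in the authors' deposited table was 10.45 in siCon and 9.24 in siH19. This is a change of -1.22 ± 0.10 (SE), or 2.33-fold, and the 14th largest fall in the authors' deposited table. SLC2A3 encodes GLUT3, a high-affinity glucose transporter best known from neurons. It moved the other way in the authors' deposited table, from 14.17 to 14.40, a change of 0.24 ± 0.08 (SE, q = 0.0286). SLC2A3 has a near-identical copy, SLC2A14, and the treatment of reads shared by both is not stated in these sources.

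The other listed sugar carriers were all lower. SLC5A9 (SGLT4) is a sodium-coupled carrier of mannose and related sugars, and it went from 8.03 to 7.23 in the authors' deposited table (-0.80 ± 0.14 SE). SLC2A9, which carries urate, changed by -0.48 ± 0.13 (SE), and SLC2A11, a less studied family member, by -0.58 ± 0.17 (SE) in the authors' deposited table. SLC5A11, a sodium-coupled inositol carrier, had the lowest level of all 48, at 3.93 in siCon and 3.31 in siH19 in the authors' deposited table. Its SE of 0.21 there was smaller than 0.34, the error expected from counting reads in 3 + 3 libraries at that level. This was so for 4 of the 6 members with a mean count under 50, so the sizes of their changes are less certain than their SEs state. Whether the deposited fold changes were shrunken toward 0 is not stated in these sources, which also bears on the counts past 1.5-fold and 2-fold.

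The shares of the 4 called SLC2 genes in their sum differed between the groups. Family members that were not called are not in the table, so shares here and below cover listed genes only. Levels of different genes were compared per kb of 1 annotated transcript, which may not be the one HepG2 uses. Shares and ranks per kb depend on that choice. On that scale SLC2A3 made up 87.9% of the summed level of the 4 listed SLC2 genes in siCon and 94.2% in siH19. The share of SLC2A2 was 8.13% in siCon and 3.21% in siH19. SLC2A2 stood 13th and SLC2A3 first among the 48 in mean level per kb. The spread of these shares over libraries is not known.

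Carriers of amino acids and related amines were the largest class, with 9 of 11 lower and a median of -0.48. SLC1A2 encodes the glutamate transporter EAAT2 (GLT-1). It fell from 10.52 to 9.64 in the authors' deposited table, a change of -0.88 ± 0.10 (SE). Its relative SLC1A4 encodes ASCT1, a carrier of alanine, serine and cysteine. That gene rose from 9.79 to 10.27 in the authors' deposited table, by 0.47 ± 0.09 (SE, q = 1e-06). Per kb of the transcripts used, SLC1A4 was 37.2% of their sum in siCon and 60.3% in siH19. Which of the 2 stood higher within a group depends on the transcript lengths used.

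SLC7 members were divided in the same way. SLC7A2, the cationic amino acid transporter CAT2, which takes up arginine and lysine, rose by 0.40 ± 0.08 (SE), from 10.93 to 11.34 in the authors' deposited table. SLC7A11, the cystine/glutamate exchanger xCT that supplies cysteine for glutathione, was lower there (-0.43 ± 0.08 SE, from 10.68 to 10.25). SLC7A6, a light chain that exchanges cationic for neutral amino acids, was lower as well (-0.27 ± 0.08 SE), and so was SLC7A9, the light chain for cystine and basic amino acids (-0.88 ± 0.21 SE), both in the authors' deposited table. SLC7A9 had a low mean count, 37.4, with 5.60 in siCon, 4.72 in siH19 and q = 5.02e-04 in the authors' deposited table. Summed per kb, the 4 listed SLC7 genes stood at 667 in siCon and 659 in siH19, so the sum moved little while the share of SLC7A2 went from 38.7% to 52%.

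The remaining amino acid carriers were all lower. SLC38A3 (SNAT3), which moves glutamine in liver, changed by -0.48 ± 0.12 (SE) in the authors' deposited table. SLC38A4 (SNAT4), an imprinted gene known from liver and placenta, changed by -0.75 ± 0.21 (SE) at a mean count of 35.1. The SLC6 family, which couples uptake to sodium and chloride, had 3 listed genes. These were SLC6A4, the serotonin transporter (-0.60 ± 0.12 SE), SLC6A12, a betaine and GABA carrier (-0.66 ± 0.22 SE), and SLC6A14, a broad amino acid carrier (-0.41 ± 0.13 SE), in the authors' deposited table.

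**Figure D2:**
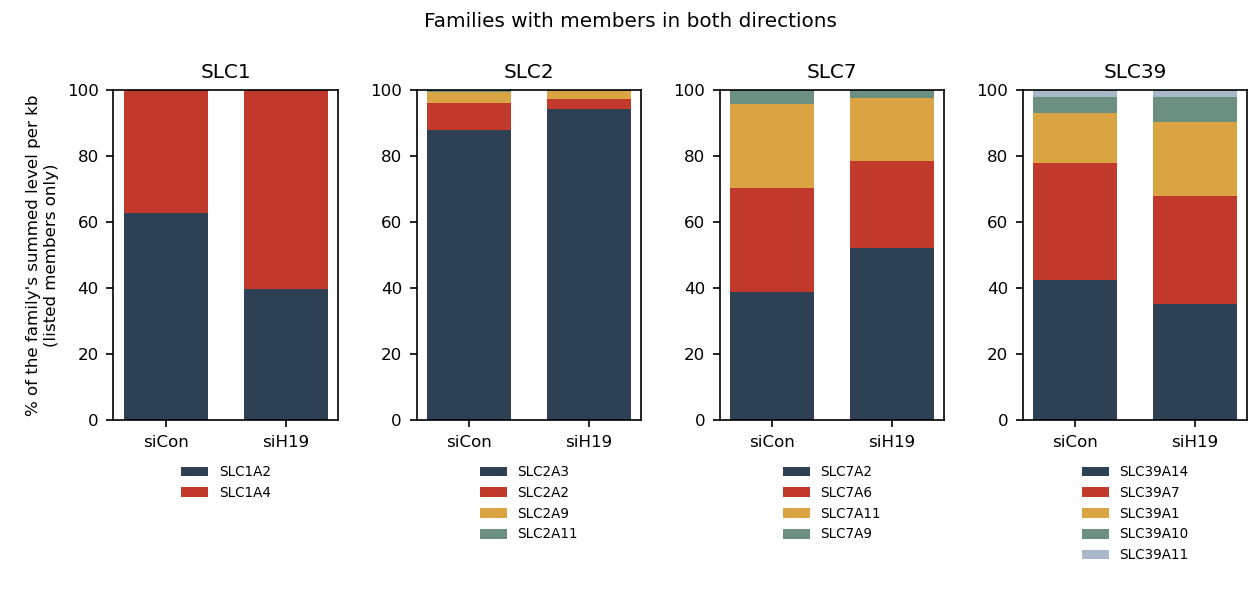
Share of each listed member (vertical axis, percent) in the summed level per kb of the listed genes of its family, in siCon and siH19, for the 4 families with members in both directions. SLC1A4 goes from 37.2% to 60.3% of the SLC1 sum, SLC2A3 from 87.9% to 94.2% of SLC2, SLC7A2 from 38.7% to 52% of SLC7, and SLC39A14 from 42.4% to 35.3% of SLC39.

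Of 8 metal carriers 5 were lower, the lowest share among the classes with at least 3 members. SLC39A14 (ZIP14), which brings zinc, manganese and iron not bound to transferrin into hepatocytes, had the highest level of the class. It went from 13.09 to 12.50 in the authors' deposited table (-0.59 ± 0.07 SE). SLC39A7 (ZIP7), which releases zinc from the endoplasmic reticulum and Golgi, was at 11.89 and 11.44 in the authors' deposited table (-0.45 ± 0.08 SE). SLC39A11 changed by -0.37 ± 0.13 (SE) in the authors' deposited table.

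Other zinc importers of the family rose. SLC39A10 (ZIP10) went from 10.18 to 10.54 (0.36 ± 0.10 SE) and SLC39A1 (ZIP1) from 10.83 to 11.07 (0.24 ± 0.08 SE, q = 0.0259) in the authors' deposited table. Per kb, the sum of the 5 listed SLC39 genes was 4431 in siCon and 3538 in siH19. SLC39A10 and SLC39A1 together held less of that sum than SLC39A14 alone in either group, with shares of 4.82% and 15.1% in siCon and 7.75% and 22.3% in siH19.

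Carriers of other metals were also divided. SLC41A1, a magnesium transporter, had the second largest rise of all members, from 7.01 to 7.75 in the authors' deposited table (0.74 ± 0.15 SE, q = 2.1e-05). SLC31A1 (CTR1), the copper importer, was lower there (-0.58 ± 0.09 SE, from 10.32 to 9.74). SLC30A10, which exports manganese, was at 5.03 and 4.34 in the authors' deposited table (-0.68 ± 0.22 SE, q = 0.0143), with a mean count of 26.4.

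All 4 organic ion carriers were lower. SLC22A3 encodes OCT3, a carrier of organic cations such as monoamines and drugs. It fell from 8.32 to 7.26 in the authors' deposited table (-1.06 ± 0.13 SE, 2.08-fold). SLC47A1 (MATE1), which extrudes organic cations into bile, changed by -0.39 ± 0.09 (SE) in the authors' deposited table. SLC17A5, the lysosomal sialic acid exporter, changed by -0.40 ± 0.11 (SE), and SLC10A7, a member of the bile acid carrier family without a known bile acid substrate, by -0.43 ± 0.12 (SE) in the authors' deposited table.

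All 4 carboxylate carriers were lower too. SLC13A5 (NaCT), the sodium-coupled citrate importer of hepatocytes, went from 10.26 to 9.63 in the authors' deposited table (-0.64 ± 0.09 SE). SLC13A3 (NaDC3), which takes up dicarboxylates such as succinate, changed by -0.56 ± 0.10 (SE) in the authors' deposited table. With both lower by a similar amount, the sum of the 2 per kb was 545 in siCon and 358 in siH19, and the share of SLC13A5 was 65.5% in siCon and 64.4% in siH19. The monocarboxylate family members SLC16A4 and SLC16A6 changed by -0.47 ± 0.16 (SE) and -0.29 ± 0.08 (SE) in the authors' deposited table.

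The 3 listed mitochondrial carriers (SLC25) were lower, over a wide range of sizes. SLC25A30, a carrier related to the uncoupling proteins, fell from 8.64 to 7.63 in the authors' deposited table (-1.01 ± 0.12 SE, 2.01-fold). SLC25A16, linked to coenzyme A transport, changed by -0.50 ± 0.17 (SE). SLC25A13 (citrin), the aspartate/glutamate carrier of the malate-aspartate shuttle and urea cycle, changed by -0.22 ± 0.08 (SE) in the authors' deposited table, the smallest change of all 48. It had the highest level of the 3, with 79.9% of their sum per kb in siCon.

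The 4 listed SLC35 genes, a family known for supplying the Golgi and endoplasmic reticulum with nucleotide sugars, were lower. SLC35D2, which carries UDP-N-acetylglucosamine, changed most (-0.59 ± 0.10 SE, from 10.96 to 10.38 in the authors' deposited table). SLC35A5, SLC35B1 and SLC35F5 lay between -0.37 and -0.29. Of the ion carriers, SLC9B2, a sodium/proton exchanger, was lower (-0.86 ± 0.13 SE, from 9.24 to 8.38), and so was SLC26A1, a sulfate exchanger (-0.59 ± 0.19 SE), in the authors' deposited table. SLC12A2 (NKCC1), which brings sodium, potassium and chloride into the cell, rose from 9.35 to 9.81 (0.45 ± 0.10 SE, q = 1.08e-04 in the authors' deposited table). The adaptor SLC9A3R1 (NHERF1) was at -0.34 ± 0.08 (SE) in the authors' deposited table.

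The remaining classes had 1 listed member each. SLC44A2, a choline transporter-like protein, had the largest rise of the 48, from 5.78 to 6.62 in the authors' deposited table (0.84 ± 0.19 SE, q = 1.28e-04), at a mean count of 76.8. SLC27A2 (FATP2), which activates and imports long-chain fatty acids, changed from 8.77 to 8.12 (-0.66 ± 0.12 SE, q = 3e-06 in the authors' deposited table). SLC19A2, a thiamine transporter, went from 9.86 to 9.48 (-0.38 ± 0.10 SE, q = 0.00266), and SLC28A1, a pyrimidine nucleoside carrier, from 4.10 to 3.49 (-0.62 ± 0.21 SE, q = 0.0268), in the authors' deposited table. SLC28A1 is another gene with few reads, at a mean count of 14.2.

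**Figure D3:**
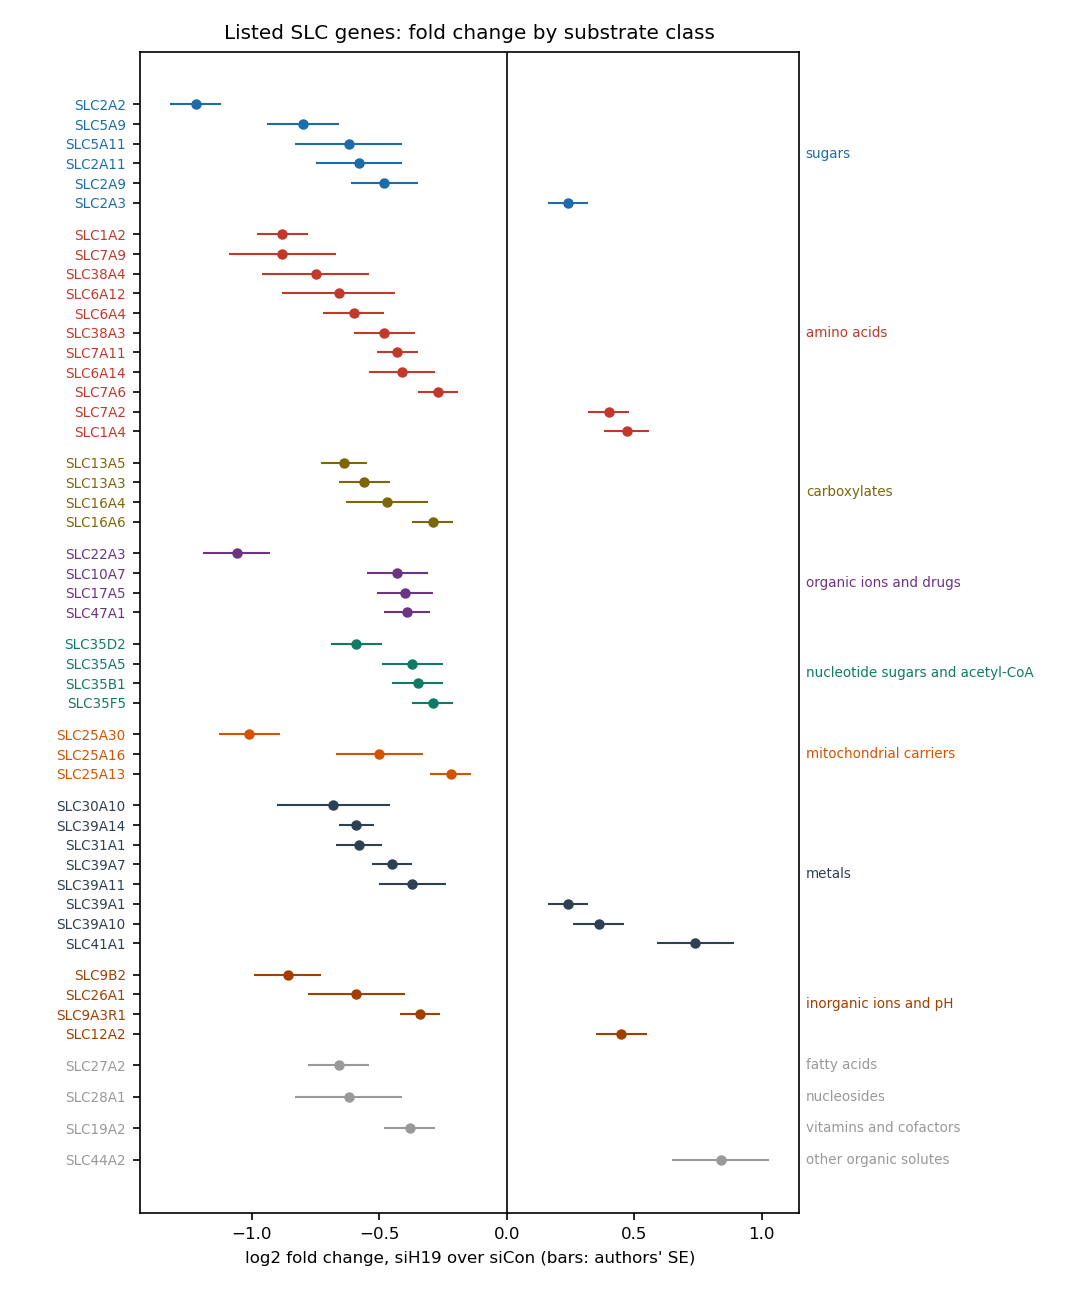
log2 fold change of the 48 listed SLC genes, siH19 over siCon (horizontal axis; bars are the authors' SE), by substrate class. Carboxylate, organic ion, SLC35 and mitochondrial carriers all lie left of 0, while 3 of 8 metal carriers, 2 of 11 amino acid carriers and 1 of 6 sugar carriers lie right of it.

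The share of lower members was larger at low levels than at high ones, a difference that rests on 8 rises and was not tested. Of the 27 members with a mean count under the table's median of 640, 25 (92.6%) were lower, beside 51% of all listed genes in that range. At or above that median, 15 of 21 (71.4%) were lower, beside 59.7% of all listed genes there. The 6 members with a mean count under 50 were all lower, beside 51.9% of the 108 listed genes in that range. Of the 8 rises, 6 were in genes at or above the median. The median change of the lower members was -0.59 under the median and -0.43 at or above it, beside -0.55 and -0.37 for all listed lower genes.

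**Figure D4:**
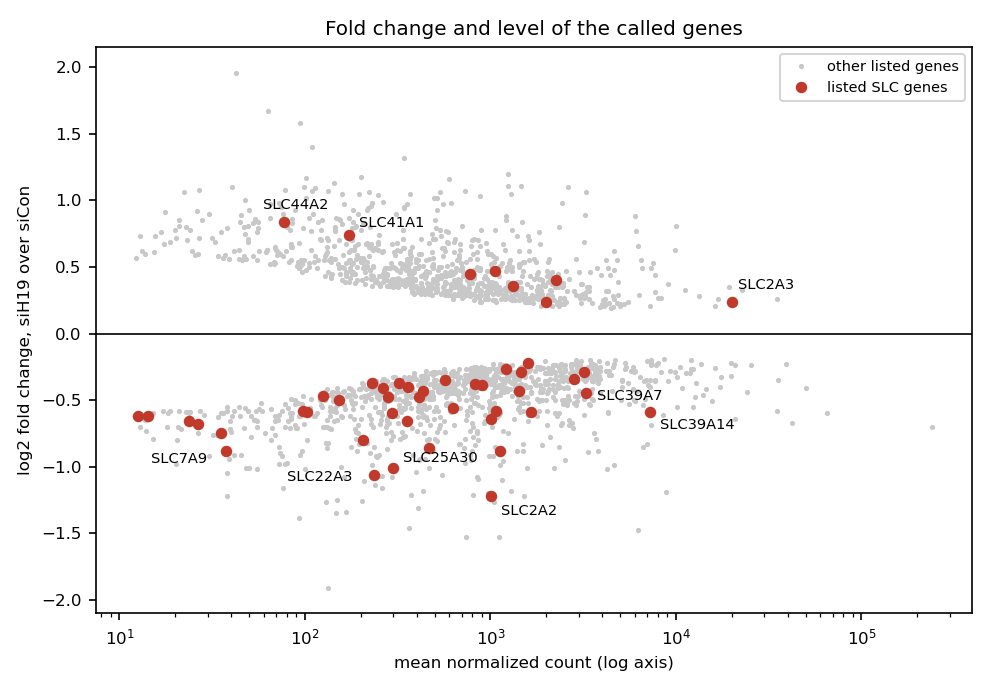
log2 fold change, siH19 over siCon (vertical axis), against mean normalized count (horizontal log axis) for the 48 listed SLC genes (red) and the other 1950 listed genes (grey). Of the SLC genes below the median count of 640, 25 of 27 lie under 0, and SLC2A3 at a mean count of 20031 is the right-most member.

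Of 25 SLC families with a listed gene, 12 had more than 1, and only SLC1, SLC2, SLC7 and SLC39 among these held genes in both directions. By position in GENCODE release 29, the members lie on 20 chromosomes. Chromosome 17 holds 7 of them, SLC6A4, SLC13A5, SLC16A6, SLC35B1, SLC39A11, SLC47A1 and SLC9A3R1. All 7 were lower, beside 55.9% of the 111 listed genes of that chromosome and 83.3% of all 48 members. Chromosome 4 holds 5, SLC2A9, SLC7A11, SLC9B2, SLC10A7 and SLC26A1. All 5 were lower, beside 70.4% of the 81 listed genes there. Chromosome 1 holds 6 members, of which 4 were lower, and chromosome 2 holds 3, of which 1 was lower. With most members lower, such small counts show no tie of direction to position, and none was tested. No pair of members lies within 1 Mb of each other, and none overlaps another listed gene. In that annotation 33 of the 48 overlap a gene on the opposite strand, and 14 overlap another protein-coding gene on either strand, such as SLC39A7 with RXRB, SLC31A1 with CDC26 and SLC9B2 with BDH2. Whether counting used strand is not stated in these sources, so reads of such pairs may have been shared.

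Short sequences in the transcripts were described next. The 3' untranslated regions (UTRs) of all 48 were searched, on the sense strand, for the letters CATCAAA and GCAGTAC, chosen because their tie to direction over the whole table was already known. One annotated transcript was searched per gene, which may not be the one HepG2 uses. CATCAAA was found in 15 members (31.2%), beside 15.5% of the 1866 listed genes with a searched UTR. The 15 had longer UTRs, with a median of 2503 bases against 1166 in the other members. The sites of the 3 members with the largest falls, SLC2A2, SLC22A3 and SLC25A30, are shown first, followed by those of 3 members that rose. Genes and letters were both picked with the direction of change known, so that these sites are examples only. The capitals mark the match, and positions are on GRCh38, which is not the build of the authors' processing.
SLC2A2 (chr3:170997753-170997779, minus strand): tcagaaatgtCATCAAAtattaccaaa
SLC22A3 (chr6:160451451-160451477, plus strand): gaaatgtgttCATCAAAtctggtcaag
SLC25A30 (chr13:45395785-45395811, minus strand): ggatgctcttCATCAAAcgtttaatgg
SLC25A30 (chr13:45395719-45395745, minus strand): tgcccttcaaCATCAAAgataatatgt
SLC25A30 (chr13:45394270-45394296, minus strand): aagacaaagtCATCAAAaagagaggat
SLC1A4 (chr2:65022670-65022696, plus strand): tacttgacagCATCAAAtgccgcctct
SLC12A2 (chr5:128187617-128187643, plus strand): aataatgtttCATCAAAtggttaaatg
SLC41A1 (chr1:205789511-205789537, minus strand): cttgtacaggCATCAAAaccaactcct

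Among the SLC genes, holders of the sequence were not more often lower than the others. With most members lower and few rises, these counts cannot show whether a tie is absent. Of the 15 members that hold CATCAAA, 11 (73.3%) were lower, and of the 33 without it 29 (87.9%) were lower. Over all listed genes the same shares were 73.7% and 51.1%. The other lower holders were SLC6A14, SLC7A6, SLC7A11, SLC17A5, SLC31A1, SLC35D2, SLC38A4 and SLC39A7, and the fourth higher one was SLC7A2. GCAGTAC was found in 2 members (4.17%), SLC41A1 and SLC7A2, beside 8.15% of the listed genes with a searched UTR. Over all listed genes 152 held GCAGTAC, and 13.2% of these were lower. Both members were among the 8 that rose, but the letters were chosen for their tie to direction in these data, so this is no support. The site of SLC41A1 reads as follows.
SLC41A1 (chr1:205791309-205791335, minus strand): cctgagataaGCAGTACaagtaggttt

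H19 is known to bind the microRNA let-7, so matches to its seed (bases 2 to 8, in capitals) were also counted. The mature sequence is from RefSeq (GRCh38.p14).
let-7a-5p: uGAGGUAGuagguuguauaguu
The matching letters CTACCTC were found in the 3' UTRs of 6 members (12.5%), beside 11.4% of listed genes. They were SLC1A4, SLC5A9, SLC6A14, SLC31A1, SLC35B1 and SLC35D2, of which SLC1A4 was higher and the other 5 lower. That is 83.3% lower, the same share as the 83.3% of members without the match. Over all listed genes 52.8% of those with the match and 54.8% of those without it were lower. A match is a description of the letters and does not show binding.

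Promoter windows from 250 bases before to 50 after the gene start were given for 32 of the 48 members in RefSeq (GRCh38.p14), among 35116 windows in all. They were searched on both strands for short elements of factors that act on carrier genes. The C/EBP-ATF4 response element, TGATGNAAN, through which amino acid shortage acts on transporter genes, was in 3.61% of all windows. Of the members only SLC1A4, which rose, and SLC39A11, which was lower, held it. Both are shown with the element in capitals.
SLC1A4 (chr2:64989346-64989444, plus strand): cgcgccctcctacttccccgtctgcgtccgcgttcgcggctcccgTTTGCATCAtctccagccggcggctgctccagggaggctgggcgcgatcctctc
SLC39A11 (chr17:73092639-73092692, minus strand): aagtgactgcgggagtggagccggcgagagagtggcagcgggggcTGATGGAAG
The antioxidant element core, TGACNNNGC, was in 9 of 32 member windows (28.1%), beside 13.3% of all windows. Of the 9 genes 7 were lower, beside 83.3% of all 48 members, a count too small to show whether the core went with direction. The 35116 windows are of any gene and were not matched to listed or expressed genes. Differences from their shares, here and below, are therefore not particular to carriers as far as these counts show. The letters TGCNCNC, a looser form of the metal response core, were in 22 of 32 (68.8%) beside 55.9%. They were found in SLC30A10, SLC31A1, SLC39A1, SLC39A10 and SLC39A11 and not in SLC39A7 or SLC41A1, so they were present in metal carriers of both directions. A pattern in more than 50% of windows does not show which carriers hold the element itself. CCAAT was in 14 of 32 (43.8%) beside 34.6%, and TATAAA in 3 (SLC9B2, SLC30A10 and SLC38A4) beside 11.5%. The HNF1 letters GTTAATNAT and the HNF4 letters CAAAGTCCA were in 0 member windows, beside 0.792% and 0.384% of all.

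Transport proteins outside the naming rule were counted from lists. The share called among all tested genes is not known, so how many genes of a list were called is no result about that list. Of 68 SLC proteins with other symbols, 13 were listed, 8 lower (61.5%, near the 55.3% of all listed genes) and 5 higher. MPC1, a subunit of the mitochondrial pyruvate carrier, was at -1.06 ± 0.10 (SE) and UNC93A at -1.11 ± 0.15 (SE) in the authors' deposited table. Of the 8 lower ones 7 are mitochondrial. Besides MPC1, these were LETM1, SFXN1, SFXN3, SFXN5, UCP2 and MTCH2, with changes from -0.61 to -0.27 in the authors' deposited table. This grouping was made after the directions were seen. The share of mitochondrial proteins among the 68 was not counted, so it is no support for the SLC25 values. XPR1, the phosphate exporter, was at 1.11 ± 0.09 (SE) and SV2A, a synaptic vesicle protein, at 1.10 ± 0.21 (SE) in the authors' deposited table. CNNM4, a magnesium transporter as SLC41A1 is, was higher too (0.59 ± 0.12 SE in the authors' deposited table).

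ABC transporters, which pump substrates with ATP, had 6 of 7 listed genes lower (of 48 symbols), with a median of -0.43. Among all listed genes 55.3% were lower, with a median of -0.27. ABCC6 was at -0.62 ± 0.12 (SE) and ABCC1 was the 1 higher gene (0.24 ± 0.08 SE) in the authors' deposited table. The single listed SLCO carrier, SLCO2B1, was at -0.42 ± 0.14 (SE), the aquaporin AQP3 at -0.71 ± 0.20 (SE), and the bile acid exporter subunits SLC51A and SLC51B at -0.58 each in the authors' deposited table. Of 4 listed ion pumps 3 were lower, and ATP1B1, a subunit of the sodium pump whose gradient drives sodium-coupled carriers, was higher (0.56 ± 0.10 SE in the authors' deposited table). Of 4 listed carrier regulators and partners 3 were lower and 1 was higher. With 4 genes each, the 75% lower among pumps and among partners says little beside the 55.3% of all listed genes. The kinases SGK1 and SGK2, known to raise the surface level of carriers, were at -0.65 ± 0.09 (SE) and -0.67 ± 0.14 (SE) in the authors' deposited table. OSTM1, a chloride carrier subunit, was at -0.34 and WNK2, a kinase of the family that controls ion cotransporters, at 0.39 ± 0.13 (SE, q = 0.0272) in the authors' deposited table.

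Beside the metal carriers, 10 of 41 genes of iron, zinc and copper handling were listed, 7 lower and 3 higher. The 70% lower among these 10 stands beside 55.3% of all listed genes, and so few genes show no trait of the list. The zinc-binding metallothioneins MT2A and MT1E were lower (-0.65 ± 0.15 SE and -0.55 ± 0.14 SE in the authors' deposited table). STEAP3, the reductase that prepares endosomal iron for export to the cytosol, was higher (1.05 ± 0.13 SE in the authors' deposited table). MTF2, also higher, acts in Polycomb repression rather than in metal handling. Of 38 genes on a list of regulators of sugar and amino acid uptake 9 were listed. All 9 were lower, beside 55.3% of all listed genes. The list is a broad one. It includes HNF4A, already counted as a hepatocyte marker, and the factors NR1H4, CEBPA, PPARA and NR1H3, which are not particular to uptake. The count therefore does not show that uptake regulators fell as a class. MLXIPL (ChREBP), the glucose-responsive factor known to act on sugar metabolism, was at -0.94 ± 0.12 (SE) beside SLC2A2. The factor of the amino acid response DDIT3 was at -0.42 ± 0.16 (SE), beside the rise of SLC1A4, in the authors' deposited table. The largest change of that list was NR1H4 (-1.31 ± 0.12 SE in the authors' deposited table), a bile acid receptor. Whether any of these factors had a part in the changes of the carriers was not tested.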

How the data were processed

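RNA-seq of 6 HepG2 libraries, 3 siCon and 3 siH19, was made from rRNA-depleted total RNA with a stranded kit, per the labels' protocols. STAR 2.5.0a, Cufflinks 2.2.1, DESeq2 1.0.0 and the build hg19 are named in the submitters' processing notes, with no roles. The gene annotation is not given in the sources used here. A single table of called genes was deposited by the authors. Per the file headers it holds log2 counts per group, a mean count (a normalized signal, deposited by the authors), a log2 fold change, its SE and a q value. Libraries had been combined, so no test was added and the q values (adjusted p-values) are the authors' own. The labels do not say whether libraries were separate cultures, so SEs and q may reflect technical spread only.

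Members were found by symbol and put into 12 substrate classes by family number. Members, classes and lists were chosen with earlier results of these data known. Every member was named. Full values went to the 3 largest changes in each direction, the 3 highest levels, the largest rise and largest fall of each class with at least 3 members and all members of smaller classes. Other values in the text were added as examples after they had been seen. Fold changes and levels were used as deposited. Lengths, 3' UTRs and overlaps came from GENCODE release 29 (GRCh38), with 1 protein-coding transcript per gene, that of the longest coding part. All 48 members and 1886 listed genes were matched. Scripts used Python 3.11.15, pandas 2.3.3, numpy 2.4.6 and scipy 1.17.1. A check on made-up inputs with known answers covered only the weighted median and the rule that finds members. No column (0) came from a sample of another series. Promoter windows were missing for SLC1A2, SLC2A3, SLC5A9, SLC5A11, SLC6A12, SLC7A2, SLC7A11, SLC9A3R1, SLC13A3, SLC16A6, SLC22A3, SLC25A16, SLC25A30, SLC38A3, SLC39A14 and SLC47A1.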

Additional observations from a re-analysis of the deposited data

How the results depend on the processing

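The share of members lower in siH19 (83.3%) lay between 79.4% and 90% under q under 0.01, a mean count of at least 100, a change of at least 1.5-fold, leaving out overlapping genes, and leaving out SLC9A3R1. The last of these and the removal of members that overlap another protein-coding gene were chosen after seeing the data. Leaving out members that overlap another listed gene removed 0 members, so that setting could not change any value. The median log2 fold change (-0.47) lay between -0.48 and -0.40 under the same alternatives and with weights of 1 / SE squared, except that it was -0.66 among the 20 members changed at least 1.5-fold, a subset without small changes by construction. For single classes, 29 of 32 alternative values stayed within the range set by the SE or the binomial interval, and none changed direction. These classes hold only 3 to 11 members, so their binomial intervals are wide. Some alternatives removed no gene, as for the 4 organic ion carriers under both settings. The agreement was therefore partly fixed in advance and says little about how firm the class values are. The difference of the deposited group values gave the deposited fold change within 0.01 for every member. No paired analysis was possible because the table holds 1 combined value per group, and for that reason leaving out libraries and other normalizations were not run. With no depth and no uncalled genes in the table, the share of all carriers that changed was not analysed here.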
